A study of Mus musculus with 8 samples.

Results

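The genes described here are 10 members of the antioxidant programme controlled by the transcription factor NRF2, in mouse astrocytes transformed in culture with HER2CA. They are Nfe2l2, which encodes NRF2 itself, and Hmox1, Nqo1, Gclm, Gclc, Txnrd1, Srxn1, G6pdx, Me1 and Prdx1. They were picked by gene symbol as known members of the programme, at a time when earlier results of these data were known, and all 10 were present among the 13607 genes of the count table. PolyA RNA from 8 cultures or spheres was sequenced, 2 libraries in each of 4 groups.

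All 4 groups came from C57BL/6J astrocytes that carry floxed alleles of Yap and Taz, grown in N-2-supplemented DMEM-F12 with 20 ng/ml EGF and 20 ng/ml bFGF. The gliomaspheres (P1) were HER2CA cells in suspension with doxycycline, collected 3 weeks into the experiment. The 4OH-TAM day 15 group held HER2CA astrocytes given doxycycline and 1 µM 4OH-TAM, the tamoxifen metabolite that activates CreERT2 and is meant to delete Yap and Taz. The HER2CA day 15 group held HER2CA astrocytes given doxycycline for 15 days with no 4OH-TAM. The control astrocytes were not transformed and had no doxycycline, so the oncogene and doxycycline cannot be told apart in any comparison with them. No day or week is given for the control, so time in culture cannot be told apart there either. Gliomaspheres differ from HER2CA day 15 in both suspension culture and time. All groups carry the floxed alleles, so 4OH-TAM itself cannot be told apart from the intended loss of Yap and Taz. HER2CA, rtTA and CreERT2 were delivered by lentivirus, HER2CA being doxycycline-inducible, and the sources used here do not give the promoter that drives CreERT2. The labels disagree on whether cells without 4OH-TAM received DMSO. Whether replicates A and B were separate cultures is not in the labels, and p-values then measure only the spread between libraries, which may be technical.

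NRF2 is held at a low level by KEAP1, which hands it to the CUL3 ubiquitin ligase for degradation. Oxidants and electrophiles modify KEAP1, NRF2 then accumulates, pairs with small MAF proteins and binds the antioxidant response element of genes for glutathione synthesis, thioredoxin recycling, NADPH supply, heme breakdown and quinone reduction. BACH1 competes for the same elements, above all at Hmox1. NRF2 activity is set largely at the protein level, which transcript counts do not measure. In brain, astrocytes are known for a strong NRF2 programme and for supplying neurons with glutathione precursors.

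The antioxidant response element has the core TGACNNNGC, and promoter sequences show where these letters lie in the members. RefSeq promoter windows on GRCm38.p6, from 250 bases before to 50 bases after each annotated start, were matched for 8 of the 10 members in 11 windows, with no entry for Hmox1 and Gclc. The core was found on either strand in 7 of the 8 (all but Nqo1), against 14% of the 27025 genes with a window. By window it was found in 7 of the 11, against 12.4% of all 32851 windows. The members were picked as known genes of the NRF2 programme, so their excess over all genes is not a test. Elements more than 250 bases before the start lie outside the windows, so a gene without a match may still have one. The looser core TGANNNNGC occurred in the same 7 members and in 45% of all genes. Each line below gives the gene strand from 5′ to 3′, with the matching bases in capitals. GC at the left end of the capitals means that the core reads on the opposite strand.
Nfe2l2: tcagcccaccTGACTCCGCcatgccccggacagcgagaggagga
Gclm: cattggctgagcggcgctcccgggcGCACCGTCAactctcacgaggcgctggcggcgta
Txnrd1: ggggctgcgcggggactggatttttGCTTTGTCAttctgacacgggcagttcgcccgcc
Srxn1: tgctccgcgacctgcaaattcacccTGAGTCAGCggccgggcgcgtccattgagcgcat
Prdx1: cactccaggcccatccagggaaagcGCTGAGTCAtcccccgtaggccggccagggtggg
G6pdx: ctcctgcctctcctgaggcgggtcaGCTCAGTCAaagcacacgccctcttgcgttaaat
Me1: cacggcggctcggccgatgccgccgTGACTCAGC

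The Nfe2l2 stretch is chr2:75704870-75704913 on the minus strand, with the match at -240 to -232 from the start. The Gclm stretch is chr3:122245398-122245456 on the plus strand, match at -134 to -126. The Txnrd1 stretch is chr10:82859089-82859147 on the plus strand, match at -92 to -84. The Srxn1 stretch is chr2:152105454-152105512 on the plus strand and shows the looser core at -45 to -37, while its TGACNNNGC match lies at 29 to 37 after the start. Looser matches in Srxn1 that are not printed lie at -158 to -150 and at -57 to -49. The Prdx1 stretch is chr4:116685441-116685499 on the plus strand, match at -133 to -125. The G6pdx stretch is chrX:74428904-74428962 on the minus strand, match at -57 to -49. The Me1 stretch is chr9:86695912-86695945 on the minus strand, match at -6 to 3. In Srxn1, Prdx1 and Me1 the printed match overlaps TGACTCA or its reverse complement TGAGTCA, the letters of the AP-1 motif. In Srxn1 this holds only for the printed looser match, not for its other matches. The share of all genes with these letters was not counted. A match is a description of letters, not a binding site, and these data hold no binding measurement. The members that share the core did not share a pattern of expression. By group mean, Nfe2l2, Txnrd1 and Prdx1 were highest in HER2CA day 15, Me1 in gliomaspheres, and Srxn1 and G6pdx in control astrocytes. Gclm had its highest mean in 4OH-TAM day 15. For Prdx1, G6pdx and Gclm the highest and the next group did not differ past an adjusted p of 0.05 (edgeR adjusted p = 0.104, 0.157 and 0.943).

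Total counts ran from 15517708 to 28231426 per library, and the members together took 17687 to 74069 of them. Gliomasphere library B stood apart: 36.1% of its counts came from the ribosomal RNA gene Rn45s, against 0.984 to 2.92% in the other 7 libraries. The deposited table lists no mitochondrially encoded gene. Astrocyte markers (11 of 12 measured, Gjb6 not in the table) summed to 11389 and 11854 CPM (the usual depth-scaled count, with library sizes adjusted by the trimmed mean of M values) in gliomaspheres, 12085 and 12552 in 4OH-TAM day 15, 2662 and 2735 in HER2CA day 15, and 6138 and 7173 in control. Oligodendrocyte-lineage markers (9 of 10 measured) summed to 2995 and 3306 CPM in gliomaspheres, 908 and 952 in 4OH-TAM day 15, 110.0 and 119 in HER2CA day 15, and 468 and 506 in control. The sums of neuronal (5 of 8 measured) and ependymal (5 of 6) markers were also lowest in HER2CA day 15. The neuronal sums were 133 and 143 CPM against 341 and 344 in control, and the ependymal sums 86.2 and 86.7 CPM against 214 and 225. The single genes were mixed. Against control (37.3% of all genes higher, 38.4% lower), each of these lists had 1 marker higher, 2 lower and 2 not called in HER2CA day 15. Endothelial markers, with 2 of 8 measured, summed to 3.00 and 3.16 CPM there against 11.9 and 12.4 in control, and fibroblast and mural markers (9 of 10) were lowest in gliomaspheres, at 72.5 and 80.2 CPM against 372 and 409.9 in control. The part of these shifts in the members' results was not tested. Yap1, a gene targeted by 4OH-TAM, stood at 107 and 103 CPM in the 4OH-TAM-labelled libraries and at 101 and 103 CPM in HER2CA day 15 (log2 fold change 0.04, SE 0.0682, edgeR adjusted p = 0.569). Wwtr1, which encodes TAZ, fell by 0.73 (SE 0.0687, edgeR adjusted p = 1.25e-07), to 123 and 122 CPM against 194 and 210.3 CPM. Against control, Yap1 was at -0.42 in 4OH-TAM day 15 and already at -0.46 in HER2CA day 15 (edgeR adjusted p = 9.77e-05 and 1.78e-05). Wwtr1 was at -0.50 and 0.23 in the same comparisons (edgeR adjusted p = 2.22e-05 and 0.00631). The Yap1 count thus does not show the deletion that the label implies, and every direction given below for the 4OH-TAM-labelled libraries carries that limit. The sources used here do not name the exons that the floxed alleles lose, and reads outside them would not show a deletion. Yap1 was called 0.25 higher with upper-quartile factors (adjusted p = 0.00352), and the Wwtr1 call was lost without scaling factors (adjusted p = 0.0738). In bulk RNA, fewer cells of a type and less RNA per cell cannot be told apart.

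The members did not move as a block. Nfe2l2, Hmox1, Gclc and Txnrd1 were highest in HER2CA day 15, Nqo1 was lowest there, Srxn1 was highest in control astrocytes, Me1 was highest in gliomaspheres, and Gclm, Prdx1 and G6pdx varied least. Summed over all 10, the members reached 1690 and 1789 CPM in gliomaspheres, 1832 and 1815 in 4OH-TAM day 15, 2861 and 2555 in HER2CA day 15, and 1757 and 1787 in control. The HER2CA day 15 libraries were highest in this sum, and the other 6 lay between 1690 and 1832 CPM. The ratio of the highest to the lowest group mean was 4.42 for Hmox1, 3.74 for Gclc, 2.91 for Nqo1, 2.64 for Srxn1, 2.39 for Nfe2l2, 1.90 for Me1, 1.87 for Txnrd1, 1.35 for G6pdx, 1.16 for Prdx1 and 1.14 for Gclm.

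**Figure D1:**
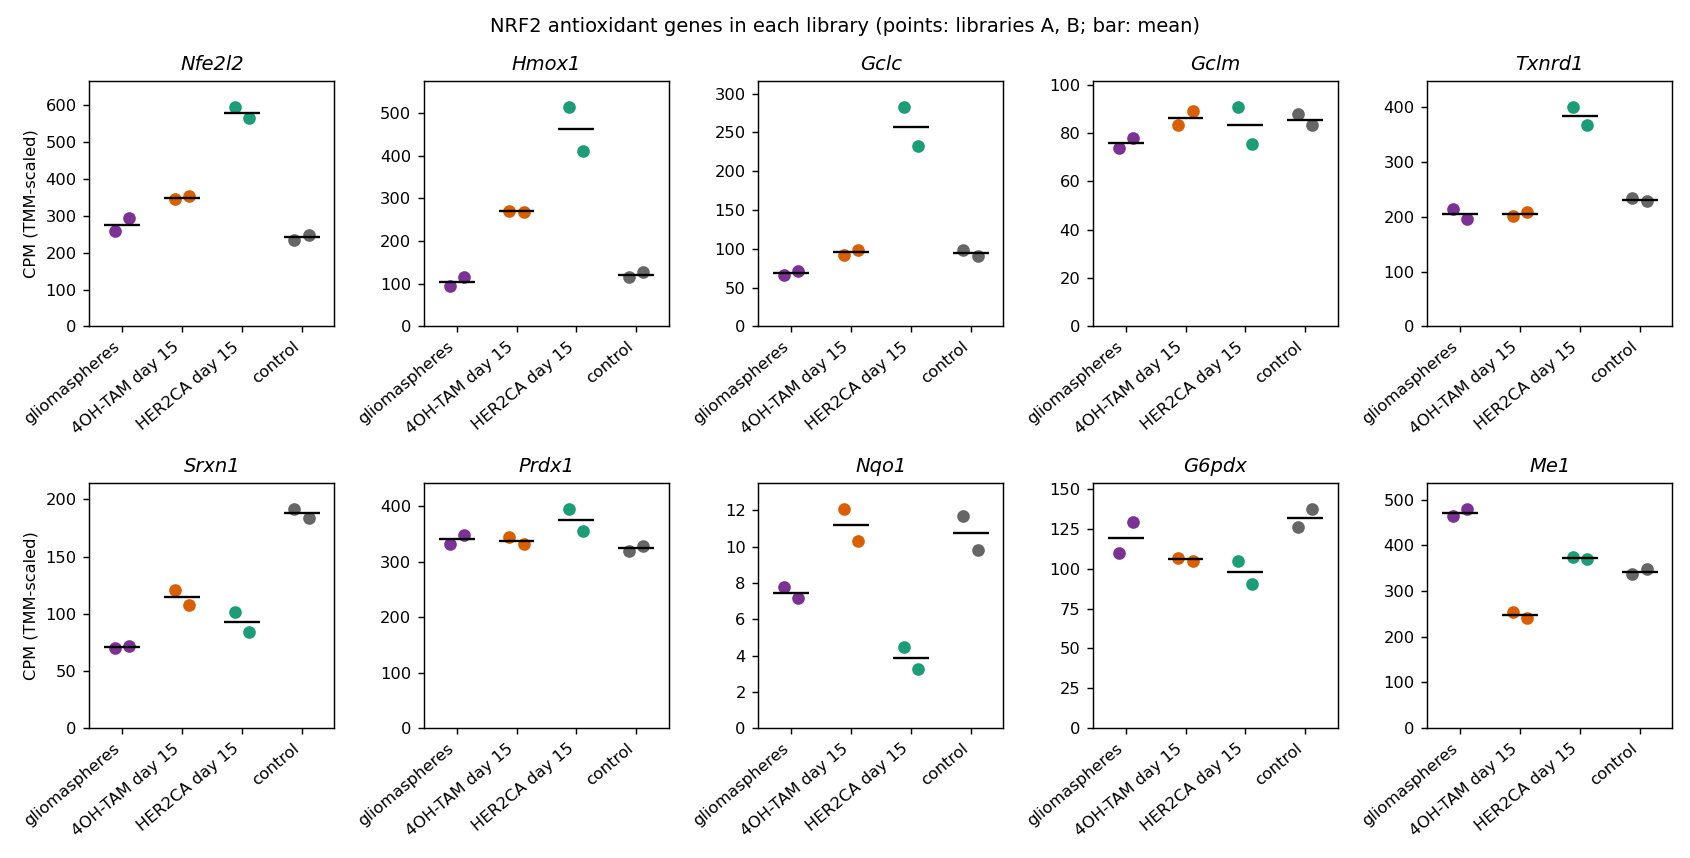
Level of each of the 10 genes (CPM, linear axis from 0, a scale of its own in each panel) in the 2 libraries of each group, gliomaspheres, 4OH-TAM day 15, HER2CA day 15 and control from left to right; points are libraries and bars are means. Nfe2l2, Hmox1, Gclc and Txnrd1 peak in HER2CA day 15, Nqo1 is lowest there, and Srxn1 is highest in control.

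Genes were called at a Benjamini-Hochberg adjusted p under 0.05 over all 13607 genes (edgeR quasi-likelihood test). In HER2CA day 15 against control, 5 members were higher and 3 lower, while 37.3% of all genes were called higher, 38.4% lower and 75.8% in either direction. In 4OH-TAM day 15 against HER2CA day 15, 2 were higher and 5 lower, with 40.8% and 39.7% of all genes and 80.5% in either. In 4OH-TAM day 15 against control, 2 were higher and 3 lower, with 31.0% and 28.2% of all genes and 59.2% in either. In gliomaspheres against HER2CA day 15, 3 were higher and 5 lower, with 38.4% and 40.4% of all genes and 78.8% in either. In gliomaspheres against control, 1 was higher and 3 lower, with 32.5% and 32.0% of all genes and 64.5% in either. In gliomaspheres against 4OH-TAM day 15, 1 was higher and 5 lower, with 31.3% and 29.7% of all genes and 61.0% in either. Counted in either direction, the members' shares of calls lie near or below these backgrounds. By direction, the members exceeded the background most among lower calls in gliomaspheres against 4OH-TAM day 15 (5 of 10 against 29.7% of all genes). The 6 comparisons share libraries and are not independent.

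Changes of at least 2-fold were fewer. In HER2CA day 15 against control, Hmox1, Gclc and Nfe2l2 were at least 2-fold higher and Nqo1 and Srxn1 at least 2-fold lower, among 10.1% and 19.5% of all genes. In 4OH-TAM-labelled libraries against HER2CA day 15, Nqo1 was at least 2-fold higher and Gclc at least 2-fold lower, among 23.9% and 9.30% of all genes. In gliomaspheres against HER2CA day 15, Nfe2l2, Hmox1 and Gclc were at least 2-fold lower, among 14.1% of all genes, and no member was at least 2-fold higher (22.1% of all genes). Of the remaining comparisons, Hmox1 was at least 2-fold higher in 4OH-TAM day 15 than in control (12.1% of all genes, with 2.95% at least 2-fold lower) and at least 2-fold lower in gliomaspheres than in 4OH-TAM day 15 (11.4%, with 7.17% at least 2-fold higher), and Srxn1 was at least 2-fold lower in gliomaspheres than in control (8.58%, with 11.4% at least 2-fold higher).

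**Figure D2:**
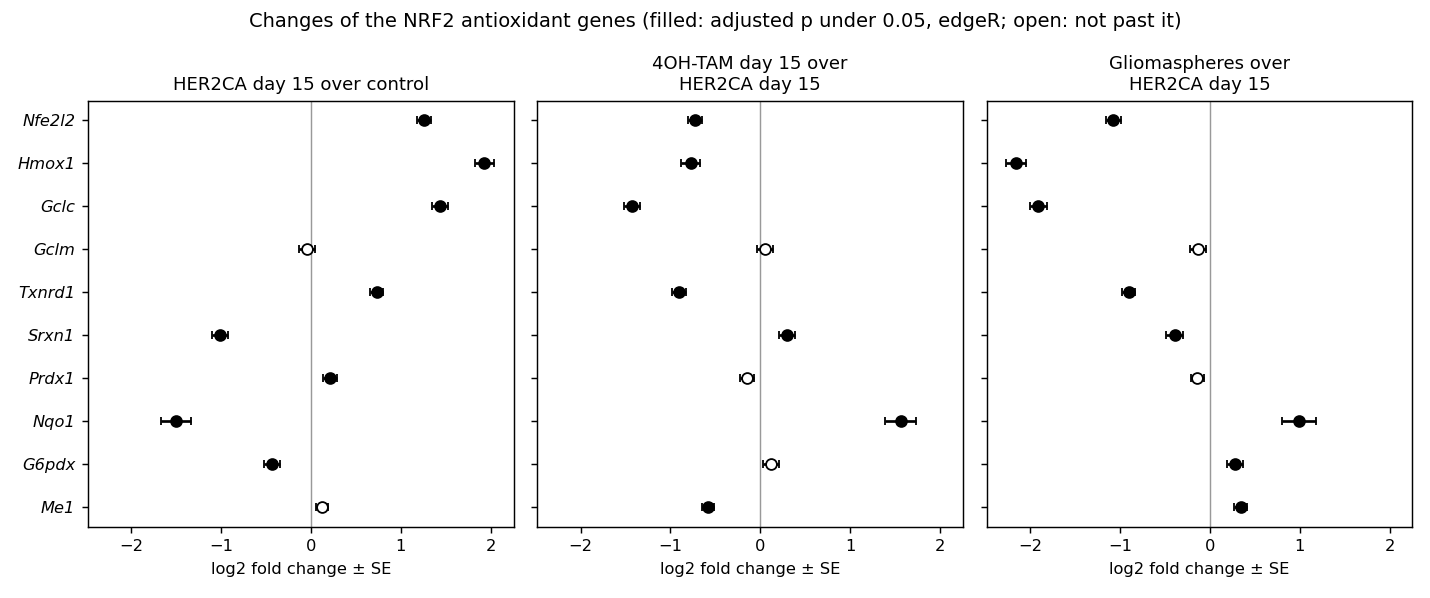
Log2 fold change of each gene (x axis, bars are ± 1 SE of the edgeR fit) in HER2CA day 15 over control, 4OH-TAM day 15 over HER2CA day 15, and gliomaspheres over HER2CA day 15; filled points passed an adjusted p of 0.05 and open points did not. Hmox1 stands at 1.93 in the left panel and Gclc at -1.43 in the middle one, while Nqo1 lies on the other side of 0 in each, at -1.50 and 1.56.

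Nfe2l2, the transcription factor (chromosome 2, 75675513 to 75704641, minus strand, GRCm38), had 259 and 293 CPM in gliomaspheres, 345 and 355 in 4OH-TAM day 15, 595 and 565 in HER2CA day 15, and 235 and 249 in control. The HER2CA day 15 libraries were highest and did not overlap with any other group, and 4OH-TAM day 15 came next. It was 1.26 higher on the log2 scale in HER2CA day 15 than in control (SE 0.0794, edgeR adjusted p = 1.53e-09). In the 4OH-TAM-labelled libraries it fell by 0.73 against HER2CA day 15 (SE 0.0785, edgeR adjusted p = 5.48e-07) and was 0.53 above control (SE 0.0787, edgeR adjusted p = 4.23e-05). Without scaling factors neither of these calls passed (edgeR adjusted p = 0.0751 and 0.157). The differences were then -0.61 (SE 0.293) and 0.60 (SE 0.293). In gliomaspheres it fell by 1.07 against HER2CA day 15 (SE 0.0795, edgeR adjusted p = 6.76e-09) and by 0.34 against 4OH-TAM day 15 (SE 0.0790, edgeR adjusted p = 0.00157). Gliomaspheres and control, the lowest in the order, differed by 0.19 (SE 0.0792, edgeR adjusted p = 0.0511). That difference passed the threshold in 4 alternatives, with adjusted p from 0.00666 to 0.0440, and took the other sign, at -0.16, without scaling factors.

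The list of 17 other regulators of NRF2, with 16 measured, had 10 higher and 5 lower in HER2CA day 15 against control, with a median log2 fold change of 0.34 against -0.02 for all genes. In this comparison 37.3% of all genes were called higher and 38.4% lower. The all-gene shares given above for each comparison are the background for this and the later counts of lists and markers. Cul3, the scaffold of the ligase that degrades NRF2, averaged 469 ± 8.05 CPM in HER2CA day 15 and 188 ± 4.11 in control (SD, n = 2 each), 1.32 higher (SE 0.0672, edgeR adjusted p = 1.48e-10). Nfe2l1, the NRF1 factor related to NRF2, averaged 1536 ± 0.546 CPM in HER2CA day 15 and 717 ± 8.74 in control, 1.10 higher (edgeR adjusted p = 3.38e-09). Sqstm1, the p62 adaptor that binds KEAP1, was 0.60 higher, at 667 ± 45.0 CPM against 439 ± 17.5 in control (edgeR adjusted p = 2.83e-06). On the lower side, Maff, a small MAF partner, fell by 2.84 to 2.44 ± 0.375 CPM in HER2CA day 15, against 17.2 ± 2.01 in control (edgeR adjusted p = 1.15e-09). Bach1, the competing repressor, fell by 0.66 to 35.8 ± 0.235 CPM in HER2CA day 15, against 56.6 ± 0.588 in control (edgeR adjusted p = 8.44e-07). Keap1 fell by 0.40 to 59.3 ± 0.960 CPM in HER2CA day 15, against 78.5 ± 0.776 in control (edgeR adjusted p = 0.000810). Without scaling factors Keap1 and Sqstm1 did not pass (adjusted p = 0.206 and 0.116).

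Of the 16 regulators, 4 were higher and 9 lower in the 4OH-TAM-labelled libraries than in HER2CA day 15, with a median of -0.27 against 0.01 for all genes. Cul3 fell by 1.35 to 183 ± 0.933 CPM in these libraries, Nfe2l1 by 0.97 to 786 ± 48.5 CPM, and Sqstm1 by 0.75 to 396 ± 2.49 CPM (edgeR adjusted p = 9.52e-11, 1.21e-08 and 2.25e-07). Maff was 1.96 higher, at 9.42 ± 1.20 CPM, and Bach1 0.30 higher, at 44.0 ± 1.18 CPM (edgeR adjusted p = 1.05e-07 and 0.00174). Keap1, at 63.2 ± 1.90 CPM, differed by 0.09 (edgeR adjusted p = 0.359) and passed with upper-quartile factors (0.30, adjusted p = 0.00698). The Sqstm1 and Bach1 calls were lost without scaling factors (adjusted p = 0.0634 and 0.247).

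In gliomaspheres, 3 regulators were higher and 10 lower than in HER2CA day 15, with a median of -0.27 against -0.03 for all genes. Sqstm1 fell by 1.66 to 211 ± 5.50 CPM and Nfe2l1 by 1.57 to 519 ± 8.59 CPM (edgeR adjusted p = 2.98e-11 and 4.55e-11). Against control, 2 were higher and 6 lower, with Sqstm1 lower by 1.06 (edgeR adjusted p = 1.44e-08), Maff lower by 1.52 (edgeR adjusted p = 1.11e-06) and Keap1 lower by 0.34 (edgeR adjusted p = 0.00441). The higher pair were Bach2, a relative of Bach1, at 0.28 (edgeR adjusted p = 0.0360), and Gsk3b, a kinase that marks NRF2 for a degradation route apart from KEAP1, at 0.32 (edgeR adjusted p = 0.0123). Leaving out any 1 of the 4 gliomasphere and control libraries ended the Bach2 call (adjusted p = 0.0603 to 0.121), and leaving out gliomasphere library B or control library B ended the Gsk3b call (adjusted p = 0.183 and 0.122), while without gliomasphere library A it stood at 0.49. The Keap1 call was lost without scaling factors (adjusted p = 0.0760), and it stood at -0.53 without gliomasphere library A and -0.21 without gliomasphere library B.

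Hmox1 encodes heme oxygenase 1, the inducible enzyme that opens the heme ring (chromosome 8, 75093621 to 75100589, plus strand). It had 94.0 and 115 CPM in gliomaspheres, 271 and 268 in 4OH-TAM day 15, 513 and 411 in HER2CA day 15, and 115 and 127 in control. HER2CA day 15 was highest, 4OH-TAM day 15 second, and the other 2 groups lay close together. Hmox1 was 1.93 higher in HER2CA day 15 than in control (SE 0.109, edgeR adjusted p = 4.36e-10). It fell by 0.78 in the 4OH-TAM-labelled libraries against HER2CA day 15 (SE 0.105, edgeR adjusted p = 6.39e-06), a call that was just lost without scaling factors (adjusted p = 0.0519). It was still 1.15 above control there (SE 0.107, edgeR adjusted p = 4.04e-07). In gliomaspheres it fell by 2.15 against HER2CA day 15 (SE 0.111, edgeR adjusted p = 1.03e-10) and by 1.38 against 4OH-TAM day 15 (SE 0.110, edgeR adjusted p = 5.03e-08). The gliomasphere difference from control was -0.22 (SE 0.109, edgeR adjusted p = 0.0859), which passed with upper-quartile factors (adjusted p = 0.0464) and without gliomasphere library B (-0.37, adjusted p = 0.00627).

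Macrophages and microglia also express Hmox1. Their markers (15 of 16 measured, Aif1 not in the table) summed to 125 and 120.2 CPM in gliomaspheres, 1167 and 1118 in 4OH-TAM day 15, 214 and 227 in HER2CA day 15, and 217 and 242 in control. The 4OH-TAM-labelled libraries were highest in these markers, with 14 of 15 called higher and 1 lower than in HER2CA day 15. Against control, HER2CA day 15 had 1 marker higher and 10 lower. Between 4OH-TAM day 15 and control, markers and Hmox1 were both higher in 4OH-TAM day 15. The part of these cells in the Hmox1 differences was not tested in any comparison.

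Of the 10 heme and iron genes, all measured, 1 was higher and 6 lower in HER2CA day 15 than in control, with a median of -0.36. Ftl1, the ferritin light chain, averaged 577 ± 8.98 CPM in gliomaspheres, 951 ± 30.4 in 4OH-TAM day 15, 2298 ± 79.7 in HER2CA day 15 and 3709 ± 213 in control (SD, n = 2 each). It was lower by 0.69 in HER2CA day 15 than in control (edgeR adjusted p = 1.61e-06), by 1.27 in the 4OH-TAM-labelled libraries than in HER2CA day 15 (edgeR adjusted p = 1.75e-09) and by 2.68 in gliomaspheres than in control (edgeR adjusted p = 2.79e-12). Fth1, the ferritin heavy chain, moved the other way, 0.34 higher in HER2CA day 15 than in control (edgeR adjusted p = 0.000944) and 0.50 higher in the 4OH-TAM-labelled libraries than in HER2CA day 15 (edgeR adjusted p = 2.37e-05). Both Fth1 calls were lost without scaling factors (adjusted p = 0.458 and 0.0767). Per kilobase of exon, the Ftl1 level was 1.08 and 1.15 times that of Fth1 in gliomaspheres, 1.17 and 1.08 times in 4OH-TAM day 15, 3.71 and 3.94 times in HER2CA day 15, and 7.57 and 8.02 times in control. Ftl1 has 2 named pseudogenes, and its counts are uncertain to the extent that reads were shared with them. Blvrb, a biliverdin reductase, fell by 0.84 in HER2CA day 15 to 14.2 ± 1.76 CPM, against 25.5 ± 0.985 in control (edgeR adjusted p = 1.01e-05). Tfrc, the transferrin receptor, was highest in gliomaspheres, at 73.5 ± 4.12 CPM against 18.6 ± 1.72 in control, 1.98 higher (edgeR adjusted p = 6.63e-09).

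Gclc and Gclm encode the catalytic and modifier subunits of glutamate-cysteine ligase, the rate-limiting enzyme of glutathione synthesis. Gclc (chromosome 9, 77754535 to 77794485, plus strand) had 66.9 and 70.8 CPM in gliomaspheres, 91.9 and 99.0 in 4OH-TAM day 15, 282 and 233 in HER2CA day 15, and 99.0 and 91.0 in control. Only the HER2CA day 15 libraries stood high, and 4OH-TAM day 15 and control overlapped. Gclc was 1.44 higher in HER2CA day 15 than in control (SE 0.0896, edgeR adjusted p = 1.33e-09) and lower by 1.43 in the 4OH-TAM-labelled libraries than in HER2CA day 15 (SE 0.0895, edgeR adjusted p = 1.23e-09). Between 4OH-TAM day 15 and control the difference was 0.01 (SE 0.0897, edgeR adjusted p = 0.949). Gliomaspheres were lowest, by 1.91 against HER2CA day 15 (SE 0.0936, edgeR adjusted p = 5.63e-11), by 0.47 against 4OH-TAM day 15 (SE 0.0933, edgeR adjusted p = 0.000453) and by 0.47 against control (SE 0.0934, edgeR adjusted p = 0.000467).

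Gclm (chromosome 3, 122245557 to 122270732, plus strand) had 73.7 and 77.8 CPM in gliomaspheres, 83.1 and 89.0 in 4OH-TAM day 15, 90.7 and 75.7 in HER2CA day 15, and 87.7 and 83.5 in control. The HER2CA day 15 pair spanned the values of 5 of the other libraries. No comparison passed the threshold, with log2 fold changes from -0.19 (gliomaspheres against 4OH-TAM day 15, SE 0.0881, edgeR adjusted p = 0.0778) to 0.05 (4OH-TAM day 15 against HER2CA day 15, SE 0.0857, edgeR adjusted p = 0.584). Upper-quartile factors called it in 4 comparisons, among them HER2CA day 15 against control at -0.20 (adjusted p = 0.0490) and 4OH-TAM day 15 against HER2CA day 15 at 0.26 (adjusted p = 0.0135). Per kilobase of exon, the catalytic subunit stood at 1.52 and 1.52 times the modifier subunit in gliomaspheres, 1.85 and 1.86 times in 4OH-TAM day 15, 5.20 and 5.14 times in HER2CA day 15, and 1.88 and 1.82 times in control. The ratio was nearly equal within each pair of libraries and was high only in HER2CA day 15.

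Of 20 other genes of glutathione supply and recycling, 17 were measured, and 9 were higher and 7 lower in HER2CA day 15 than in control, with a median of 0.24. Slc7a11, the cystine transporter that feeds glutathione synthesis, averaged 29.1 ± 1.46 CPM in gliomaspheres, 90.2 ± 22.9 in 4OH-TAM day 15, 44.4 ± 7.19 in HER2CA day 15 and 4.04 ± 0.0598 in control (SD, n = 2 each). It was 3.45 higher in HER2CA day 15 than in control (SE 0.185, edgeR adjusted p = 2.60e-10), 1.03 higher in the 4OH-TAM-labelled libraries than in HER2CA day 15 (SE 0.138, edgeR adjusted p = 5.82e-06) and 2.84 higher in gliomaspheres than in control (SE 0.196, edgeR adjusted p = 8.92e-09). Its highest group was therefore not that of Gclc. Chac1, which degrades glutathione, averaged 3.33 ± 0.563 CPM in gliomaspheres, 83.4 ± 6.08 in 4OH-TAM day 15, 69.0 ± 2.04 in HER2CA day 15 and 1.66 ± 0.311 in control. It was 5.37 higher in HER2CA day 15 than in control (edgeR adjusted p = 2.09e-13) and 5.64 higher in 4OH-TAM day 15 (edgeR adjusted p = 1.09e-12). Abcc4, an efflux pump of the MRP family, averaged 56.1 ± 2.12 CPM in gliomaspheres, 94.2 ± 16.2 in 4OH-TAM day 15, 913 ± 123 in HER2CA day 15 and 63.8 ± 2.54 in control, 3.84 higher in HER2CA day 15 than in control (edgeR adjusted p = 1.50e-12). The genes on the lower side included Glrx, a glutaredoxin, which fell by 2.86 to 3.60 ± 0.551 CPM in HER2CA day 15, against 25.9 ± 0.192 in control (edgeR adjusted p = 1.43e-10). Gpx3, a glutathione peroxidase, fell by 1.61 to 10.9 ± 1.35 CPM, against 33.6 ± 0.233 in control (edgeR adjusted p = 1.56e-09).

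Of the 17, 7 were higher and 5 lower in the 4OH-TAM-labelled libraries than in HER2CA day 15. Glrx was 2.11 and Gpx3 1.51 higher (edgeR adjusted p = 5.24e-09 and 2.88e-09), while Abcc4 fell by 3.28 and Abcc1, a second MRP pump, by 1.07 (edgeR adjusted p = 3.11e-12 and 6.58e-09). In gliomaspheres, 6 were higher and 9 lower than in HER2CA day 15, and 4 higher and 8 lower than in control. Gpx4, the peroxidase that reduces lipid hydroperoxides, was lower by 1.50 than in control, at 102 ± 25.2 CPM in gliomaspheres against 292 ± 22.6 in control (edgeR adjusted p = 3.81e-08). Over fits that left out 1 library this difference ran from -1.79 to -1.28. Gpx4 has a named pseudogene that may share reads with it.

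Txnrd1, Srxn1 and Prdx1 belong to the thioredoxin branch. Txnrd1 encodes the cytosolic thioredoxin reductase (chromosome 10, 82833951 to 82897712, plus strand). It had 214 and 196 CPM in gliomaspheres, 202 and 209 in 4OH-TAM day 15, 400.0 and 368 in HER2CA day 15, and 234 and 228 in control. The HER2CA day 15 libraries were again the only high ones, and gliomaspheres and 4OH-TAM day 15 overlapped. Txnrd1 was 0.73 higher in HER2CA day 15 than in control (SE 0.0738, edgeR adjusted p = 2.98e-07). It was lower by 0.90 than in HER2CA day 15 both in the 4OH-TAM-labelled libraries (SE 0.0741, edgeR adjusted p = 2.52e-08) and in gliomaspheres (SE 0.0747, edgeR adjusted p = 2.45e-08). Against control it was at -0.17 in 4OH-TAM day 15 (SE 0.0739, edgeR adjusted p = 0.0571) and at -0.17 in gliomaspheres (SE 0.0745, edgeR adjusted p = 0.0578). The first passed when only these 2 groups were fitted (adjusted p = 0.0214), and the second passed in 3 alternatives (adjusted p = 0.0210 to 0.0343).

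Srxn1 encodes sulfiredoxin, which repairs overoxidised peroxiredoxins (chromosome 2, 152105516 to 152111376, plus strand). It had 70.1 and 72.0 CPM in gliomaspheres, 121 and 107 in 4OH-TAM day 15, 102 and 84.5 in HER2CA day 15, and 192 and 184 in control. Control was highest and gliomaspheres lowest, with no overlap between any groups. Srxn1 fell by 1.01 in HER2CA day 15 against control (SE 0.0882, edgeR adjusted p = 5.73e-08), by 0.72 in the 4OH-TAM-labelled libraries (SE 0.0873, edgeR adjusted p = 6.19e-06) and by 1.40 in gliomaspheres (SE 0.0917, edgeR adjusted p = 4.55e-09). Without scaling factors the second of these did not pass (adjusted p = 0.109). The 4OH-TAM-labelled libraries lay 0.30 above HER2CA day 15 (SE 0.0883, edgeR adjusted p = 0.00635). This call was lost without scaling factors (adjusted p = 0.241), without HER2CA day 15 library B (0.17, adjusted p = 0.133) and without 4OH-TAM library A (0.21, adjusted p = 0.0974). Gliomaspheres lay below HER2CA day 15 by 0.39 (SE 0.0921, edgeR adjusted p = 0.00121) and below 4OH-TAM day 15 by 0.69 (SE 0.0916, edgeR adjusted p = 1.25e-05). Without HER2CA day 15 library A the first of these was -0.25.

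Prdx1 encodes peroxiredoxin 1, an abundant cytosolic peroxidase and a substrate of sulfiredoxin (chromosome 4, 116685544 to 116700822, plus strand). It had 332 and 348 CPM in gliomaspheres, 343 and 331 in 4OH-TAM day 15, 395 and 354 in HER2CA day 15, and 319 and 329 in control. The HER2CA day 15 libraries were the highest, by a small margin over gliomasphere library B. Prdx1 was 0.21 higher in HER2CA day 15 than in control (SE 0.0752, edgeR adjusted p = 0.0198), the only comparison in which it passed. That call was lost under 5 alternatives, among them leaving out HER2CA day 15 library A (0.13, adjusted p = 0.204) or control library A (0.17, adjusted p = 0.122) and upper-quartile factors (0.05, adjusted p = 0.539). Per kilobase, the Srxn1 level was 0.228 and 0.223 times that of Prdx1 in gliomaspheres, 0.381 and 0.350 times in 4OH-TAM day 15, 0.279 and 0.257 times in HER2CA day 15, and 0.648 and 0.604 times in control. The enzyme that repairs the peroxiredoxin was thus highest relative to it in control. The Txnrd1 level per kilobase was 1.22 and 1.08 times that of Srxn1 in gliomaspheres, 0.663 and 0.774 times in 4OH-TAM day 15, 1.56 and 1.74 times in HER2CA day 15, and 0.487 and 0.494 times in control.

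The other 14 thioredoxins, peroxiredoxins and scavengers were all measured, with 4 higher and 7 lower in HER2CA day 15 than in control and a median of -0.20. Txnip, which binds and inhibits thioredoxin, averaged 55.9 ± 4.01 CPM in gliomaspheres, 194 ± 18.8 in 4OH-TAM day 15, 982 ± 116 in HER2CA day 15 and 501 ± 27.2 in control. It was 0.97 higher in HER2CA day 15 than in control (edgeR adjusted p = 2.19e-07), and in gliomaspheres it was lower by 4.14 than in HER2CA day 15 and by 3.17 than in control (edgeR adjusted p = 8.88e-14 and 4.21e-12). Txn1, thioredoxin itself, was 1.70 higher in gliomaspheres than in HER2CA day 15, at 309.8 ± 21.9 CPM against 95.7 ± 4.14 (edgeR adjusted p = 1.56e-11). The inhibitor and the enzyme therefore stood in opposite order in these 2 groups. Txnrd2, the mitochondrial reductase, was 1.42 higher in HER2CA day 15 than in control (edgeR adjusted p = 1.17e-06). Prdx4, the peroxiredoxin of the endoplasmic reticulum, fell by 1.15 and Prdx6 by 0.79 in the same comparison (edgeR adjusted p = 4.60e-08 and 1.89e-05). Prdx6 has a named pseudogene that may share reads with it.

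Nqo1 encodes the NAD(P)H quinone dehydrogenase that is often used as an indicator of NRF2 activity (chromosome 8, 107388225 to 107403206, minus strand). It was the least abundant member, with 71 to 315 counts per library. It had 7.75 and 7.18 CPM in gliomaspheres, 12.1 and 10.3 in 4OH-TAM day 15, 4.45 and 3.24 in HER2CA day 15, and 11.7 and 9.80 in control. HER2CA day 15 was lowest without overlap, and 4OH-TAM day 15 and control overlapped. Nqo1 fell by 1.50 in HER2CA day 15 against control (SE 0.169, edgeR adjusted p = 1.04e-06) and was 1.56 higher in the 4OH-TAM-labelled libraries than in HER2CA day 15 (SE 0.168, edgeR adjusted p = 5.66e-07). Between 4OH-TAM day 15 and control the difference was 0.06 (SE 0.148, edgeR adjusted p = 0.760). Gliomaspheres lay between, 0.99 above HER2CA day 15 (SE 0.186, edgeR adjusted p = 0.000171), 0.57 below 4OH-TAM day 15 (log2 fold change -0.57, SE 0.164, edgeR adjusted p = 0.00762) and lower by 0.51 than control (SE 0.165, edgeR adjusted p = 0.0135). The first of these was lost without scaling factors (adjusted p = 0.0544), the second without 4OH-TAM library A (adjusted p = 0.0727) and the third without control library A (adjusted p = 0.118).

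Other detoxification genes were counted beside Nqo1. Of 20 genes of quinone and carbonyl detoxification, 18 were measured, with 1 higher and 11 lower in HER2CA day 15 than in control (median -0.54), and 11 higher and 4 lower in the 4OH-TAM-labelled libraries than in HER2CA day 15 (median 0.63). Nqo2, the paralogue of Nqo1, averaged 6.31 ± 0.926 CPM in HER2CA day 15 and 34.7 ± 0.524 in control, lower by 2.47 (SE 0.114, edgeR adjusted p = 5.20e-11). Ptgr1, which reduces reactive enals, fell by 2.06 to 2.10 ± 0.725 CPM, against 8.54 ± 1.38 in control (edgeR adjusted p = 2.88e-07). The gene on the higher side was Ugt1a6a, a glucuronosyltransferase, 2.39 higher at 21.4 ± 1.93 CPM against 4.08 ± 1.16 (edgeR adjusted p = 7.44e-09). Transcripts of the Ugt1a locus share their last exons, so their counts are uncertain. Aldh3a1, an aldehyde dehydrogenase, was 2.93 and Ptgr1 2.62 higher in the 4OH-TAM-labelled libraries than in HER2CA day 15 (edgeR adjusted p = 1.70e-09 and 1.07e-08), and Ugt1a6a was lower by 1.14 (edgeR adjusted p = 6.50e-06). In gliomaspheres 5 were higher and 7 lower than in control, with Akr1b10, an aldo-keto reductase, 1.18 higher (edgeR adjusted p = 3.17e-07) and Akr1c14, another, lower by 3.48 (edgeR adjusted p = 3.45e-11). Aldo-keto reductases have close paralogues, so their separate counts are uncertain too.

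Of 24 glutathione S-transferases, which conjugate electrophiles to glutathione, 18 were measured. In HER2CA day 15 against control, 4 were higher and 9 lower, with a median of -0.53. In 4OH-TAM-labelled libraries against HER2CA day 15, 11 were higher, 10 of them by at least 2-fold, and 2 lower, with a median of 1.15. Gsto1 and the microsomal Mgst1 were on the higher side in HER2CA day 15, at 161 ± 11.7 CPM against 84.1 ± 1.34 in control and 312 ± 50.1 CPM against 182 ± 5.22 in control, log2 fold changes of 0.94 and 0.77 (edgeR adjusted p = 8.17e-08 and 7.77e-06). Mgst3 and Gsta4 fell by 2.51 and 1.97 (edgeR adjusted p = 1.59e-08 and 1.65e-10). Gsto1 and Mgst1 fell by 1.88 and 1.45 in the 4OH-TAM-labelled libraries against HER2CA day 15 (edgeR adjusted p = 4.85e-11 and 8.01e-09), while Gstm2 and Gstt1 were 3.61 and 2.81 higher there (edgeR adjusted p = 7.29e-10 and 1.10e-09). In gliomaspheres, 4 were higher and 11 lower than in control, with a median of -0.75. The transferases come from multigene families with similar sequences, and their separate counts are uncertain.

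G6pdx and Me1 supply NADPH, the reductant that the other members use. G6pdx encodes glucose-6-phosphate dehydrogenase, the entry to the pentose phosphate pathway (X chromosome, 74409483 to 74429194, minus strand). It had 109.6 and 129 CPM in gliomaspheres, 107 and 105 in 4OH-TAM day 15, 105 and 90.5 in HER2CA day 15, and 126 and 137 in control. Neighbours in the order control, gliomaspheres, 4OH-TAM day 15 and HER2CA day 15 did not differ past the threshold (edgeR adjusted p = 0.157, 0.126 and 0.246). Across the order, G6pdx fell by 0.43 in HER2CA day 15 against control (SE 0.0895, edgeR adjusted p = 0.000436) and by 0.32 in the 4OH-TAM-labelled libraries against control (SE 0.0891, edgeR adjusted p = 0.00677), and it was 0.28 higher in gliomaspheres than in HER2CA day 15 (SE 0.0913, edgeR adjusted p = 0.0107). All 3 calls were lost without scaling factors, the third taking the other sign (-0.02). The second was also lost without control library B (adjusted p = 0.0697) and the third without HER2CA day 15 library B (0.18, adjusted p = 0.151).

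Me1 encodes cytosolic malic enzyme (chromosome 9, 86581371 to 86695953, minus strand). It had 463 and 479 CPM in gliomaspheres, 255 and 242 in 4OH-TAM day 15, 374 and 369 in HER2CA day 15, and 337 and 348 in control. Gliomaspheres were highest and 4OH-TAM day 15 lowest, with no overlap between groups. Me1 was higher in gliomaspheres than in 4OH-TAM day 15 by 0.93 (SE 0.0707, edgeR adjusted p = 3.26e-08), than in control by 0.46 (SE 0.0702, edgeR adjusted p = 3.97e-05) and than in HER2CA day 15 by 0.34 (SE 0.0701, edgeR adjusted p = 0.000382). It fell by 0.58 in the 4OH-TAM-labelled libraries against HER2CA day 15 (SE 0.0703, edgeR adjusted p = 1.86e-06) and by 0.46 against control (SE 0.0702, edgeR adjusted p = 5.19e-05). Between HER2CA day 15 and control the difference was 0.12 (SE 0.0699, edgeR adjusted p = 0.130). All 5 of its calls were lost without scaling factors (adjusted p = 0.167 to 0.874).

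The NADPH list held 13 other genes, 12 of them measured. In HER2CA day 15 against control, 5 were higher and 7 lower, with a median of -0.49. Idh1, the cytosolic isocitrate dehydrogenase, averaged 175 ± 0.615 CPM in gliomaspheres, 149 ± 11.9 in 4OH-TAM day 15, 67.1 ± 4.09 in HER2CA day 15 and 185 ± 8.24 in control, lower by 1.47 in HER2CA day 15 than in control (edgeR adjusted p = 2.32e-10). Idh2, its mitochondrial counterpart, averaged 121 ± 0.571 CPM in gliomaspheres, 287 ± 9.95 in 4OH-TAM day 15, 639 ± 26.7 in HER2CA day 15 and 339.5 ± 16.4 in control, 0.91 higher in HER2CA day 15 than in control (edgeR adjusted p = 2.22e-08). The cytosolic and mitochondrial enzymes thus moved in opposite directions there. Against HER2CA day 15, which both comparisons use, Idh1 was 1.15 higher and Idh2 lower by 1.16 in the 4OH-TAM-labelled libraries (edgeR adjusted p = 2.94e-09 and 1.45e-09). In gliomaspheres 9 of the 12 were higher and 2 lower than in HER2CA day 15, with a median of 0.41. Against control, Pgd and Pgls, the pentose phosphate enzymes that act after G6pdx, were 1.06 and 0.93 higher (edgeR adjusted p = 7.06e-09 and 8.44e-08), while G6pdx itself was at -0.15 (SE 0.0905, edgeR adjusted p = 0.157). The Pgls call was lost without scaling factors (adjusted p = 0.100).

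**Figure D3:**
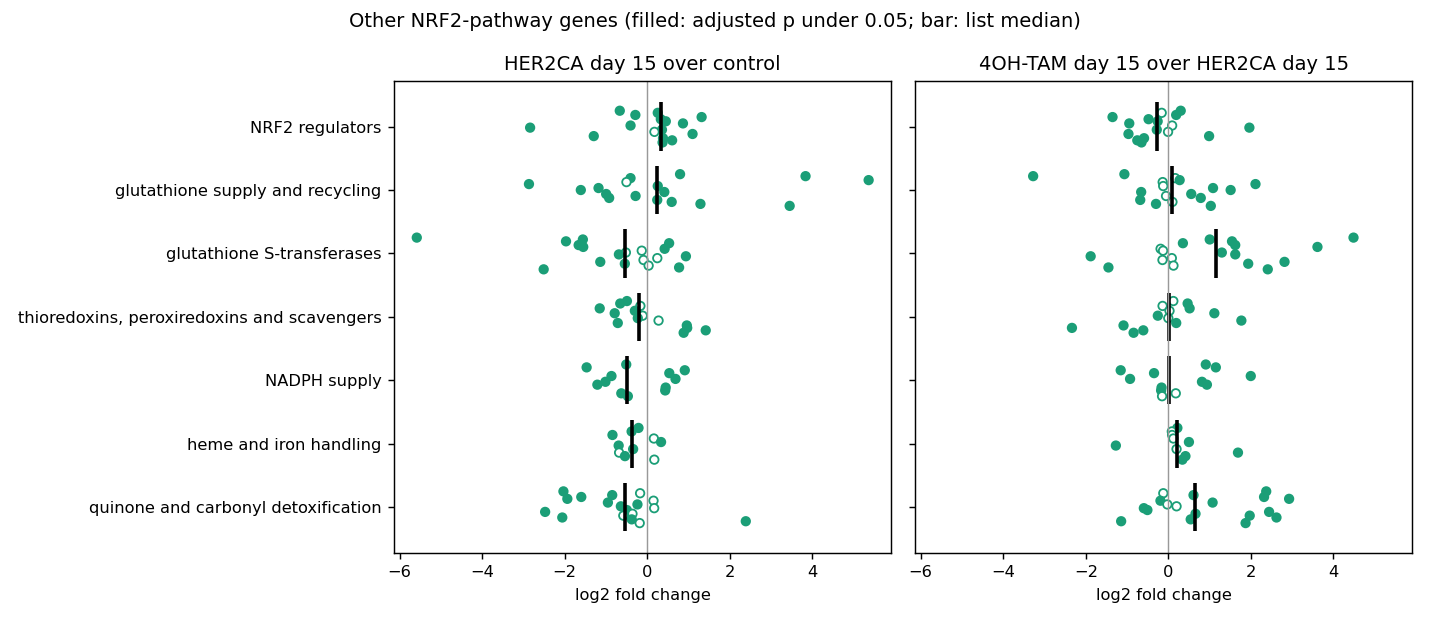
Log2 fold change (x axis) of every measured gene of the 7 lists, in HER2CA day 15 over control on the left and 4OH-TAM day 15 over HER2CA day 15 on the right; points are genes, filled where the adjusted p was under 0.05, and black bars are list medians. The glutathione S-transferases have their median at -0.53 on the left and 1.15 on the right, and the NRF2 regulators at 0.34 and -0.27.

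Over the 7 lists together, 105 of 118 genes were measured. Shares in brackets and the second of each pair of medians are those of all genes. In HER2CA day 15 against control, 34 were higher and 52 lower (37.3% and 38.4%), with a median of -0.29 against -0.02. In 4OH-TAM-labelled libraries against HER2CA day 15, 48 were higher and 31 lower (40.8% and 39.7%), with a median of 0.12 against 0.01. In 4OH-TAM-labelled libraries against control, 30 were higher and 39 lower (31.0% and 28.2%), with a median of -0.10 against 0.00. In gliomaspheres against HER2CA day 15, 41 were higher and 40 lower (38.4% and 40.4%), with a median of 0.03 against -0.03. In gliomaspheres against control, 24 were higher and 47 lower (32.5% and 32.0%), with a median of -0.15 against -0.01. In gliomaspheres against 4OH-TAM day 15, 29 were higher and 47 lower (31.3% and 29.7%), with a median of -0.09 against 0.02.

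Levels per kilobase divide by the union of all annotated exons of a gene, which can be longer than the transcript expressed. The order of members below is uncertain to that extent. Hmox1 was the highest in HER2CA day 15 at 264 ± 41.1 CPM per kilobase, followed by Nfe2l2 at 153 ± 5.63. In gliomaspheres the highest was Me1 at 122 and then Prdx1 at 112, in 4OH-TAM day 15 Hmox1 at 154 and then Prdx1 at 111, and in control Prdx1 at 106 and then Me1 at 88.9. Nqo1 was the lowest member in every group, at 4.81 in gliomaspheres, 7.20 in 4OH-TAM day 15, 2.48 in HER2CA day 15 and 6.91 in control.

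Likeness of pattern between members was measured over the 8 libraries as the root-mean-square difference of mean-centred log2 CPM, which is 0 for identical patterns. The 8 closest of all pairs were Gclm with Prdx1 (0.126), Gclm with G6pdx (0.199), G6pdx with Prdx1 (0.239), Nfe2l2 with Txnrd1 (0.273), Txnrd1 with Prdx1 (0.316), Me1 with Prdx1 (0.326), G6pdx with Me1 (0.340) and Nfe2l2 with Gclc (0.354). Genes that vary little lie close to one another by this measure whatever their pattern, and pairs such as Txnrd1 with Prdx1 join a gene highest in HER2CA day 15 to a nearly flat one. Hmox1 was closest to Gclc (0.437).

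Among 10818 genes, those most like Nfe2l2 were Rnf185 (0.0522), Ppp1r15b (0.0624) and Hemk1 (0.0842). Those most like Hmox1 were Sirpa (0.128), Jade2 (0.142) and Litaf (0.177). Those most like Nqo1 were Lrrc75b (0.148), Dcaf4 (0.149) and Nme7 (0.151). None of these 9 genes belongs to the lists used here.

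**Figure D4:**
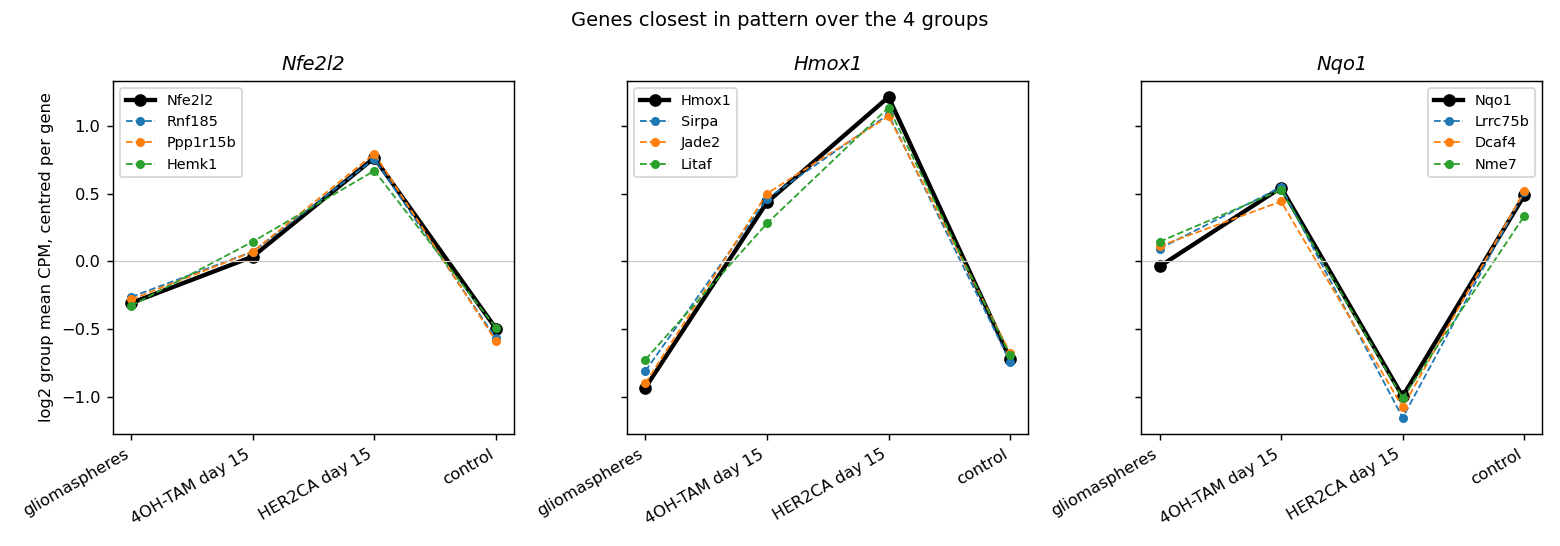
Log2 of the group mean CPM, centred per gene (y axis), for Nfe2l2, Hmox1 and Nqo1 (black) and the 3 genes most like each (colours), with gliomaspheres, 4OH-TAM day 15, HER2CA day 15 and control along the x axis. The Nfe2l2 and Hmox1 panels peak in HER2CA day 15 and the Nqo1 panel dips there.

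Gene models overlap some members. On the same strand lie Gm24996 (Nfe2l2), Gm6061 (Gclm), Eid3 (Txnrd1) and Gm38230 (Me1), and on the other strand lie Gm17494 (Gclm), Gm38560 and Gm47073 (Txnrd1), Ikbkg (G6pdx) and A330041J22Rik (Me1). The kit marks strand, but the sources used here give no strand setting for the counting, so reads of these pairs may not have been told apart.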

How the data were processed

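Per the labels' protocols, the 8 libraries (4 groups of 2) were stranded mRNA preparations. The authors deposited a single table of read counts by gene symbol, and its whole numbers with unequal library totals show that no normalisation was applied. The submitters' processing notes name the tools FastQC, featureCounts and STAR 2.5.3a, and give GRCm38 and mm10 as builds, without saying what each did. The sources used here name no annotation. Every one of the 13607 genes reached 1 CPM in 2 or more libraries, and rarer genes are not analysed here. No gene was removed by filterByExpr.

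Counts were tested in R 4.3.3 with edgeR 4.0.16 (glmQLFit and glmQLFTest with TMM factors, fitting 1 mean per group over all 8 libraries, which leaves 4 residual degrees of freedom, at a common dispersion whose square root is 0.0685), with Benjamini-Hochberg adjustment over all genes. CPM used TMM-scaled library sizes (factor 0.637 in gliomasphere library B, 1.03 to 1.12 in the others). Each standard error is |log2 fold change| over √F from the test. Levels per kilobase used the exon union of GENCODE M21 (GRCm38). This union holds the exons of all annotated transcripts, so the size of a ratio between genes depends on it. The same lengths were used in every group. The script was run on simulated data with known changes, drawn with the dispersions that the same fit had estimated. That run cannot check those dispersions, since it takes them as given. It also does not test the effect of the Rn45s share of gliomasphere library B. Replicates differed by more than sampling noise in every group (chi-square per degree of freedom 4.05 to 723, the highest in gliomaspheres).

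The members and lists were chosen with earlier results of these data known. All members are named. Of each list, genes were named by largest change, up to 2 per direction and comparison, with a mean of at least 5 CPM in the higher group, plus Keap1, Bach1, Slc7a11 and Sqstm1, and 3 genes by likeness to each of Nfe2l2, Hmox1 and Nqo1. Alternatives were other scalings, filters, DESeq2 1.42.0, fits of 2 groups, a replicate block and leaving out each library.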

Additional observations from a re-analysis of the deposited data

How the results depend on the processing

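Of 780 recomputed values of the members, 705 kept their direction and side of the threshold, 24 lost the call, 22 gained it and 29 took the other sign, and of 1586 values of the other named genes 1553 kept both. Of the members' calls made with TMM factors, none changed sign in these alternatives except G6pdx in gliomaspheres against HER2CA day 15, at -0.018 without scaling factors. Without scaling factors, the all-gene median (log2) in gliomaspheres moved to -0.30 against HER2CA day 15, -0.33 against control and -0.38 against 4OH-TAM day 15. Gliomasphere library B, with 36.1% Rn45s, is not rescaled there. The same setting moved it to 0.13 in 4OH-TAM day 15 against HER2CA day 15, and upper-quartile factors moved it to -0.17 in HER2CA day 15 against control and 0.22 in 4OH-TAM day 15 against HER2CA day 15. The fit shares its spread over all groups, and standard errors without scaling factors were larger also in comparisons without gliomaspheres. For Hmox1 in 4OH-TAM day 15 against HER2CA day 15 the SE was 0.292, against 0.105 with TMM factors. A call lost without scaling factors therefore need not mean a smaller difference.

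Without scaling factors, calls among members were 3 (TMM 7) in 4OH-TAM day 15 against HER2CA day 15, 1 (TMM 5) in 4OH-TAM day 15 against control and 5 (TMM 8) in gliomaspheres against HER2CA day 15, where 0 were higher and 5 lower. In gliomaspheres against control, upper-quartile factors called 7 members (TMM 4), 1 higher and 6 lower. Calls among the 7 lists without scaling factors were 49 in HER2CA day 15 against control, 48 (34 higher, 14 lower, TMM 48 and 31) in 4OH-TAM day 15 against HER2CA day 15, 22 (17 higher, 5 lower, TMM 30 and 39) in 4OH-TAM day 15 against control, 52 (18 higher, 34 lower, TMM 41 and 40) in gliomaspheres against HER2CA day 15, 44 (9 higher, 35 lower, TMM 24 and 47) against control and 47 (2 higher, 45 lower, TMM 29 and 47) against 4OH-TAM day 15. Upper-quartile factors gave 60 higher and 23 lower in 4OH-TAM day 15 against HER2CA day 15, and 20 higher and 52 lower in gliomaspheres against 4OH-TAM day 15. Over all genes, no scaling gave 5890 calls (2304 higher, 3586 lower, TMM 5082 and 5226), 6375 (4338 higher, 2037 lower, TMM 5547 and 5400), 2654 (2115 higher, 539 lower, TMM 4221 and 3840), 4646 (1386 higher, 3260 lower, TMM 4427 and 4353) and 4199 (749 higher, 3450 lower, TMM 4255 and 4041) in HER2CA day 15 against control, 4OH-TAM day 15 against HER2CA day 15, 4OH-TAM day 15 against control, gliomaspheres against control and gliomaspheres against 4OH-TAM day 15. Upper-quartile factors gave 6569 higher and 4109 lower in 4OH-TAM day 15 against HER2CA day 15.

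Values near 0 changed sign. In HER2CA day 15 against control, Me1 was at -0.036 with upper-quartile factors and Gclm ran from -0.18 to 0.083 over fits that left out 1 library. In 4OH-TAM day 15 against HER2CA day 15, Prdx1 was at 0.055 with upper-quartile factors and Gclm ran from -0.075 to 0.19 over those fits. In 4OH-TAM day 15 against control, over the same fits, Nqo1 ran from -0.063 to 0.18, Gclm from -0.042 to 0.056 and Gclc from -0.052 to 0.063. In gliomaspheres against control and without scaling factors, Nfe2l2 was at -0.16, Prdx1 at -0.27, Bach2 at -0.039 and Gsk3b at -0.051, and against HER2CA day 15 Keap1 was at -0.19 and ran from -0.13 to 0.24 when 1 library was left out. In gliomaspheres against 4OH-TAM day 15, Txnrd1 was at -0.090 with upper-quartile factors, -0.38 without scaling, -0.016 without Rn45s and Lars2, -0.017 with at least 5 CPM in 2 libraries, -0.014 with only the 2 groups fitted, and -0.065 to 0.043 with 1 library left out. Prdx1 there was at -0.080, -0.39, -0.0063, -0.0078 and -0.0035 under the same 5 settings and -0.042 to 0.047 with 1 library left out, and G6pdx was at -0.25 without scaling.

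The differences between replicates A and B correlated weakly between groups (-0.0327 to 0.103 over 10846 genes). With 1 difference per group, this does not settle whether the letters mark a shared batch or preparation. A replicate block kept direction and call in 59 of 60 member values, the exception being the sign of Txnrd1 in gliomaspheres against 4OH-TAM day 15 (-0.00048). With 2 libraries a group, leaving 1 out makes the fit assume that the lone library varies like the other groups.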
